A study of Bos taurus with 20 samples.

Results

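CAPN1 (ENSBTAG00000010230), which encodes calpain 1, and CAST (ENSBTAG00000000874), which encodes calpastatin, are described here as 2 of the 27607 genes listed for calf skeletal muscle. They were chosen by identifier and not by a cut on their values, though earlier results of these data were known. Both were abundant enough to be among the 12057 genes tested. Messenger RNA was sequenced from 20 Angus by Holstein-Friesian crossbred heifers, 1 library per calf, all sampled at 21 weeks of age after feeding regimes that began at 2 weeks. On the High plane, 10 calves drank 1.5 kg of milk replacer in 10 litres daily and ate concentrates freely for 8 weeks, then unrestricted concentrates with hay for 11 weeks, for an expected gain of 1.2 kg per day. On the Moderate plane, 10 calves drank 0.5 kg of milk replacer in 4 litres daily with 1 kg of concentrates for the first period and 1 kg of concentrates with hay for the second, for an expected gain of 0.5 kg per day. Both regimes ran until sampling, so early and current feeding cannot be told apart. The muscle that was sampled is not given in the sources used here.

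Calpain 1, also called mu-calpain, is a calcium-activated cysteine protease of the cytosol. It works as a heterodimer of the large catalytic subunit encoded by CAPN1 and a small regulatory subunit encoded by another gene, and it cuts myofibrillar and cytoskeletal proteins such as titin, nebulin and desmin rather than digesting them fully. Calpastatin is its specific endogenous inhibitor, a largely unstructured protein with repeated inhibitory domains that binds calpain when calcium is present. In cattle the pair is known for its part in muscle protein turnover and in the tenderisation of meat after slaughter, and the CAST gene is transcribed from several promoters into many isoforms. The RefSeq gene table for the assembly ARS-UCD2.0 lists 16 transcripts of CAST and 3 of CAPN1, whereas the table analysed gives 1 value per gene, so isoforms could not be separated. In that gene table the microRNA gene MIR2407 overlaps CAPN1 and no gene overlaps CAST; whether counting used strand was not stated.

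Libraries held 12280289 to 14123113 reads assigned to genes. Values are in scaled CPM, reads per 1000000 after the library total was multiplied by a TMM factor (trimmed mean of M values, which aligns the bulk of genes between libraries). A library of each group lay far from the rest: High plane replicate 2 and, on the Moderate plane, replicate 4. Their scores on the main axis of variation within groups, computed without CAPN1 and CAST and covering 32.7% of the variance within groups, were 62.4 and 59.2, against 12.2 and 21.5 in the next calves of each group. The results are therefore given also without these 2 libraries. The identifiers of muscle fibre and other cell type markers could not be matched to names, so the tissue label was not checked against them. In bulk tissue, fewer cells of a type and less RNA per cell cannot be told apart.

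Neither the protease nor its inhibitor was shown to differ between the feeding regimes beyond the spread between calves. CAPN1 averaged 78.7 ± 29.2 scaled CPM on the High plane and 79.1 ± 16.0 on the Moderate plane (SD, n = 10 each). CAST averaged 92.3 ± 21.6 scaled CPM on the High plane and 108 ± 21.4 on the Moderate plane (SD, n = 10 each). The CAPN1 to CAST read ratio varied 6.02-fold between calves, and its ranges in the groups overlapped as well.

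For CAPN1, the catalytic subunit, the High plane calves ranged from 56.8 scaled CPM in replicate 1 through a median of 66.0 to 149 in replicate 2. The Moderate plane calves ranged from 53.2 in replicate 10 through a median of 74.4 to 110 in replicate 8. The groups overlapped almost completely. In the High plane group 7 calves lay between 56.8 and 67.0 scaled CPM, and replicates 7, 4 and 2 lay above them at 93.6, 105 and 149; of these, replicate 2 alone exceeded every Moderate plane calf. The log2 fold change of CAPN1, High minus Moderate on the log2(scaled CPM + 1) scale, was -0.05 ± 0.16 (SE; limma p = 0.751, Benjamini-Hochberg adjusted p = 0.922). Its 95% interval ran from 0.769- to 1.21-fold, so a difference of that size in either direction is not excluded by these calves. Leaving out the 2 libraries that stood apart changed it to -0.13 ± 0.13 (SE; limma adjusted p = 0.647). The mean of the High plane group was carried by its upper calves, and 7 of its 10 calves lay below the Moderate plane median.

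For CAST, the inhibitor, the High plane calves ranged from 51.1 scaled CPM in replicate 2 through a median of 92.8 to 138 in replicate 3. The Moderate plane calves ranged from 80.6 in replicate 4 through a median of 107 to 151 in replicate 2. The ranges overlapped, but 9 of the 10 calves on the High plane had less CAST than the Moderate plane mean. Below every Moderate plane calf lay 2 High plane calves, replicates 2 and 5 (51.1 and 74.9). The log2 fold change of CAST was -0.24 ± 0.14 (SE; limma p = 0.0988, adjusted p = 0.425), with a 95% interval from 0.695- to 1.03-fold. CAST thus did not pass the test before or after adjustment. With the 2 libraries that stood apart left out, this became -0.19 ± 0.11 (SE; limma p = 0.0985, adjusted p = 0.357). The lowest library of each feeding group for CAST was the one that stood apart.

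**Figure D1:**
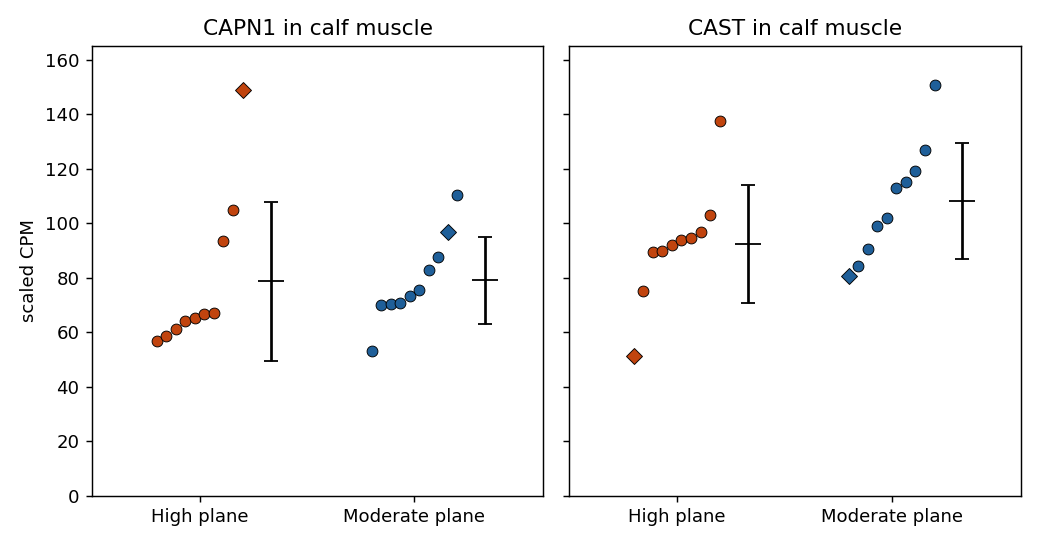
Level of CAPN1 (left) and CAST (right) in scaled CPM for each of the 20 calves, by feeding group and sorted within it. Diamonds are High plane replicate 2 and Moderate plane replicate 4, and the bars are the mean ± SD of 10 calves; the CAPN1 means lie together at 78.7 and 79.1, and the CAST means at 92.3 and 108 with overlapping calves.

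Among all genes tested, 258 of 12057 passed an adjusted p below 0.05 in this comparison, a background of 2.14%, and 0 of the 2 genes described here did. The genes called comprised 138 with more and 120 with less RNA on the High plane; with library totals alone in place of TMM scaling these were 99 and 133. Without the 2 libraries that stood apart the background was 3.45%, and neither gene passed there. At an unadjusted p below 0.05 the background was 15.9%, and again 0 of the 2 passed in limma. The edgeR quasi-likelihood test on the whole reads, which called 2.59% of genes, gave CAPN1 a log2 fold change of 0.00 (p = 0.991, adjusted p = 0.997) and CAST one of -0.22 (p = 0.136, adjusted p = 0.483). The sign of the CAPN1 difference therefore depended on the model, while CAST was lower on the High plane in both. In simulated data of this design the limma test found 8.64% of 81 genes with a 1.3-fold change. It found 80.95% of 63 genes with a 2-fold change, among 12057 genes. The simulation drew each gene independently and held no libraries that stood apart. Its rates therefore need not hold for these calves or for CAPN1 and CAST.

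**Figure D2:**
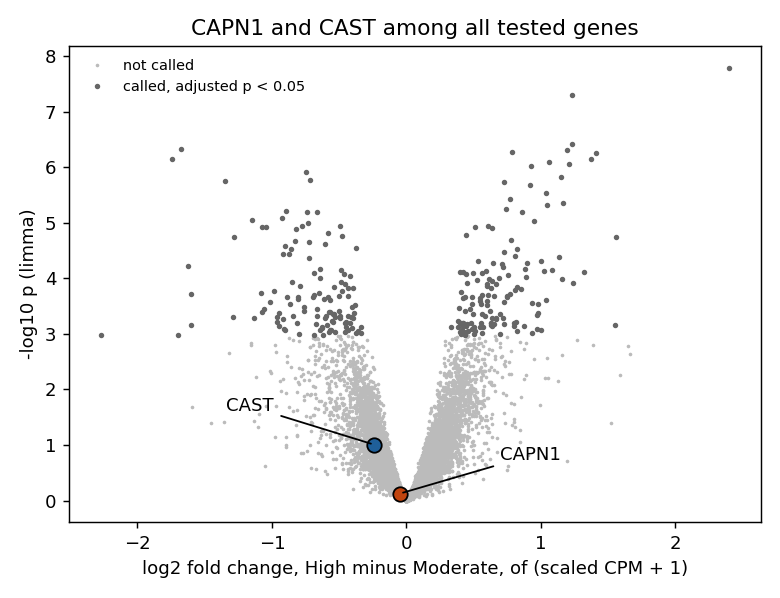
Log2 fold change (High minus Moderate, of scaled CPM + 1) against -log10 of the limma p for the 12057 genes tested; dark points are the 258 genes called. CAPN1 lies near the foot of the plot at -0.05 and CAST at -0.24, both among genes that were not called.

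The ratio of CAPN1 to CAST reads within a library does not depend on how libraries were scaled. It is a ratio of reads and not of transcripts, because the lengths of the counted transcripts were not used. A ratio of 1 therefore has no special meaning, and only differences between calves are read from it. The High plane calves ranged from 0.484 in replicate 3 through a median of 0.663 to 2.91 in replicate 2. The Moderate plane calves ranged from 0.487 in replicate 2 through a median of 0.716 to 1.20 in replicate 4. The groups shared nearly the same lower end, and the High plane group reached higher through a single calf.

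The mean log2 ratio was 0.19 ± 0.27 (SE) higher on the High plane, a 1.14-fold difference with a 95% interval from 0.773- to 1.68-fold (permutation test, 100000 resamples, two-sided, p = 0.534, adjusted p = 0.694 over 13 permutation tests, n = 10 each). This difference is smaller than its own error and rested on High plane replicate 2. Without that calf it was -0.01 ± 0.19 (SE; exact permutation p = 0.951), and the difference of group medians was -0.11 (permutation p = 0.676). Without both libraries that stood apart it was 0.07 ± 0.17 (SE; exact permutation p = 0.703). The ratio was below the Moderate plane mean in 6 of 10 High plane calves.

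**Figure D3:**
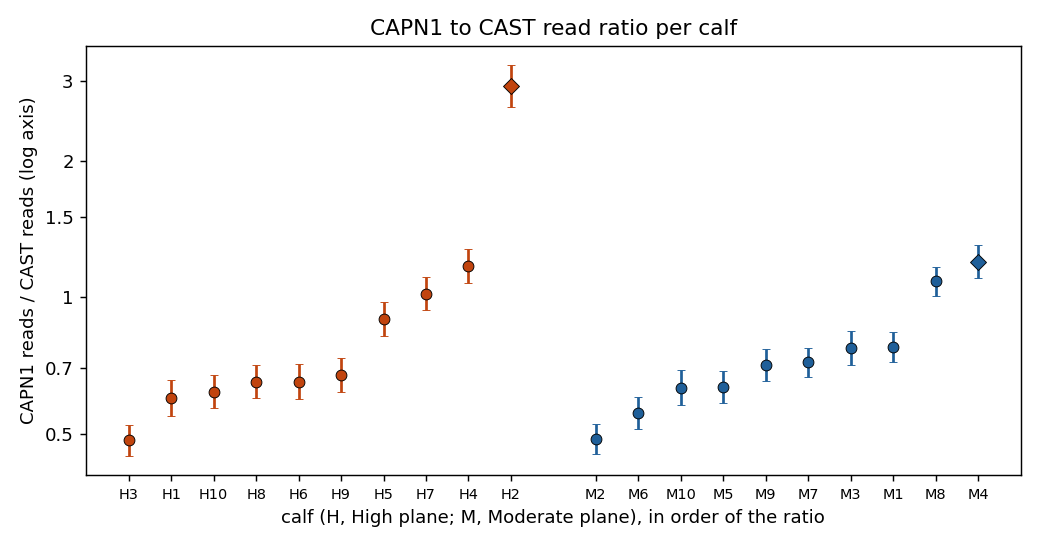
CAPN1 to CAST read ratio of each calf on a log axis, in order within each feeding group (H, High plane; M, Moderate plane, with the replicate number). Bars are 95% Wilson intervals for counting error only, diamonds are the 2 libraries that stood apart, and High plane replicate 2 at 2.91 lies far above the next calf of its group at 1.17.

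Counting error was a small part of the spread between calves. CAPN1 was covered by 729 to 1461 reads per library and CAST by 460 to 2036, which gives counting CVs of 2.62 to 3.70% and 2.22 to 4.66%. The CV of CAPN1 between calves was 37.1% on the High plane and 20.3% on the Moderate plane, and that of CAST was 23.4% and 19.8%. With the 2 libraries that stood apart left out, the CVs were 23.5% and 20.3% for CAPN1 and 17.6% and 18.2% for CAST. The wider CAPN1 spread on the High plane thus came in large part from replicate 2. No test of the difference in spread was made.

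Compared with other genes in scaled CPM, calpain 1 was rather variable on the High plane and ordinary on the Moderate plane. The SD of its log2 level was 0.45 on the High plane, where 82.5% of tested genes had a smaller SD, and 0.29 on the Moderate plane, where 41.8% did. The SD of CAST was 0.36 on the High plane, above 65.0% of genes, and 0.28 on the Moderate plane, above 38.9%. Without the 2 libraries that stood apart, the High plane SDs were 0.30 for CAPN1 (above 69.6% of genes) and 0.23 for CAST (above 45.1%), and the Moderate plane SDs were 0.28 (above 54.0%) and 0.26 (above 44.5%). With those libraries left out, the inhibitor varied about as much as the median of all tested genes, whose SD was 0.24 on the High plane. Against genes of like level (mean within 0.5 log2), both then ranked higher. CAST lay above 59.2% of these on the High plane and 57.0% on the Moderate plane, and CAPN1 above 78.4% and 65.9%.

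In High plane replicate 2 the 2 genes departed from their group in opposite directions. Its CAPN1 level was the highest of all 20 calves, 149 scaled CPM against 70.9 ± 16.7 in the other 9 High plane calves (SD), and its CAST level was the lowest, 51.1 against 96.9 ± 17.0 (SD). On the log2 scale it was 2.13-fold higher than its group for CAPN1 and 1.86-fold lower for CAST. Of all tested genes, 4.35% deviated further upward than CAPN1 in this library and 12.4% further downward than CAST. In Moderate plane replicate 4 the departures had the same signs and were smaller, with CAPN1 at 96.6 scaled CPM against 77.1 ± 15.7 (SD, n = 9) and CAST at 80.6 against 111 ± 20.3 (SD, n = 9). There, 28.5% of genes deviated further upward than CAPN1 and 27.0% further downward than CAST.

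Part of the CAPN1 rank of High plane replicate 2 came from scaling. This library had the lowest TMM factor (0.668), which raises its scaled values. Per 1000000 total reads its CAPN1 value was 99.4, behind Moderate plane replicate 8 at 110, whereas its CAST value of 34.1 remained the lowest of all calves, the next being 72.4 in Moderate plane replicate 4.

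The levels of the protease and of its inhibitor were not shown to vary together across calves. Over all 20 calves Pearson's r between the log2 levels of CAPN1 and CAST was -0.38 (permutation p = 0.117, adjusted p = 0.216) and Spearman's rho was -0.02 (permutation p = 0.922, adjusted p = 0.945). The negative r rested on High plane replicate 2, without which it was 0.04 (permutation p = 0.862). Leaving out this calf together with replicate 8 of the Moderate plane, the 2 farthest from the median in CAPN1, gave 0.04 as well (permutation p = 0.863), and without the 2 libraries that stood apart r was 0.15 (permutation p = 0.552). Within the High plane group r was -0.66 and rho -0.52 (permutation p = 0.0758 and 0.133, adjusted p = 0.164 and 0.216, n = 10), and without replicate 2 they were -0.14 and -0.33 (exact permutation p = 0.739 and 0.385, n = 9). Within the Moderate plane group r was 0.02 and rho 0.09 (permutation p = 0.945 and 0.811, adjusted p = 0.945 for both, n = 10), and without replicate 4 they were 0.27 and 0.43 (exact permutation p = 0.499 and 0.250, n = 9). Whether the groups differ in this relation was not tested.

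**Figure D4:**
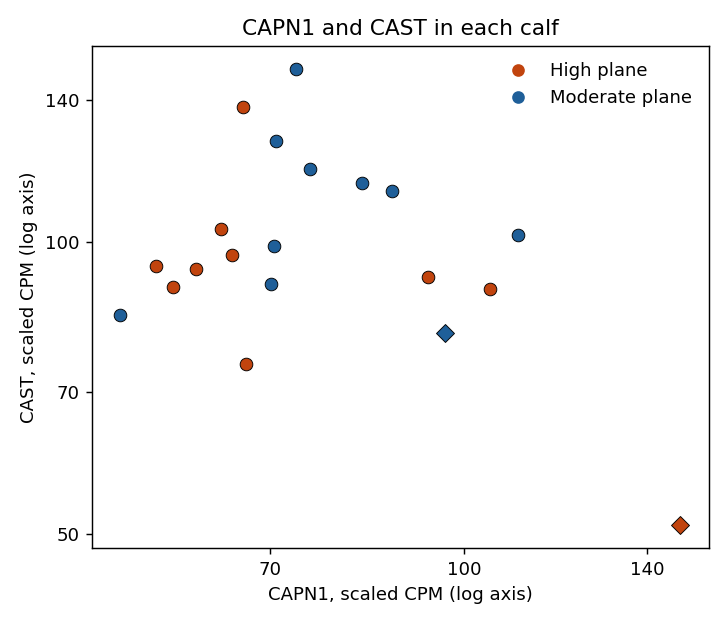
CAST against CAPN1 level in each calf, both in scaled CPM on log axes, coloured by feeding group; diamonds are the 2 libraries that stood apart. High plane replicate 2 lies alone at lower right (149 and 51.1), and the other 19 calves show no clear slope.

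Over all 20 calves the ratio rose with a property of the whole library, the share of its reads taken by its 20 most abundant genes. These genes are not named in the sources used here, and neither CAPN1 nor CAST was among them, since the highest rank by reads was 772 for CAPN1 and 580 for CAST in any library. The share ranged from 33.1% in High plane replicate 3 to 47.3% in High plane replicate 2. The 5 calves with the highest ratio, 1.02 to 2.91 against 0.895 or less in the others, were High plane replicates 2, 4 and 7 and Moderate plane replicates 4 and 8. They were also the 5 calves with the highest share, at 40.3% or more against 39.1% or less in the others.

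Across the 20 calves r between the share and the log2 ratio was 0.84 (permutation p = 8.0e-05, adjusted p = 0.00104) and rho was 0.58 (permutation p = 0.00828, adjusted p = 0.0359). Within the High plane group r was 0.90 (permutation p = 0.00238, adjusted p = 0.0155) and rho 0.75 (p = 0.0180, adjusted p = 0.0586, n = 10), and without replicate 2 they were 0.80 and 0.65 (exact permutation p = 0.0220 and 0.0666, n = 9). Within the Moderate plane group r was 0.62 (permutation p = 0.0664, adjusted p = 0.164) and rho 0.48 (p = 0.169, adjusted p = 0.244, n = 10), so neither passed there, and without replicate 4 they were 0.49 and 0.30 (exact permutation p = 0.195 and 0.437, n = 9). Without the 2 calves of highest and next highest share, High plane replicates 2 and 7, r was 0.68 (permutation p = 0.00342) and rho 0.44 (permutation p = 0.0708). Leaving out the 2 libraries that stood apart gave r of 0.69 (permutation p = 0.00326) and rho of 0.44 (permutation p = 0.0713). Without the outlying calves the linear relation thus still had a p below 0.05 over both groups together and on the High plane, but the rank relation did not. On the Moderate plane neither relation did, with or without replicate 4. Both measures come from the same libraries, this relation was looked for after the data were seen, and its cause was not tested. How many other genes or gene ratios vary with the share was not examined, so the relation is not shown to be particular to this pair.

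**Figure D5:**
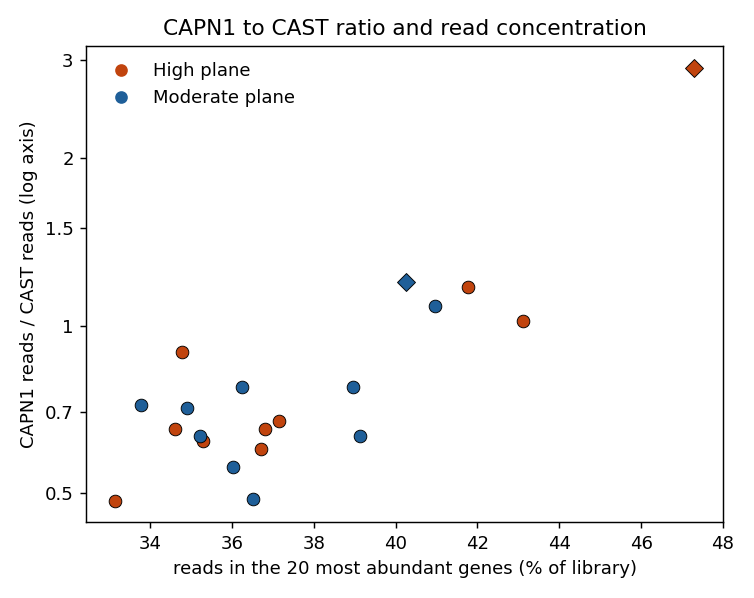
CAPN1 to CAST read ratio (log axis) against the percentage of a library's reads in its 20 most abundant genes, 1 point per calf, coloured by feeding group; diamonds are the 2 libraries that stood apart. The 5 calves with a share of 40.3% or more are the 5 with the highest ratio, at 1.02 or more.

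With this share as a covariate the group difference of CAPN1 was -0.13 ± 0.09 on the log2 scale (SE; limma adjusted p = 0.455), against an error of 0.16 without it. The covariate was chosen after seeing the data, so a smaller error with it is not an independent result. The difference of CAST was -0.20 ± 0.12 (SE; limma adjusted p = 0.376), against an error of 0.14 without the covariate. Neither gene was called with the covariate either. With library totals alone in place of TMM scaling and no covariate, the errors were 0.11 for CAPN1 and 0.19 for CAST. The error thus also depended on the scaling. The share itself averaged 38.1% ± 4.52 on the High plane and 37.2% ± 2.45 on the Moderate plane (SD, n = 10 each).

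Calpain 1 varied together with many other genes across calves, and calpastatin with no more than the median gene did. After each gene was centred on its group means, an absolute r of at least 0.8 with CAPN1 was found for 455 genes (3.77% of the others), 231 positive and 224 negative, whereas the median tested gene had 9 such partners. CAST had 9, as many as the median gene. Of the tested genes, 85.5% had fewer partners than CAPN1 and 49.3% had fewer than CAST. Among the 18 calves left without the libraries that stood apart, CAPN1 had 120 partners, CAST had 1 and the median gene 6. There, 94.2% of genes had fewer partners than CAPN1 and 11.7% had fewer than CAST. These counts describe the libraries, which all genes share together with their scaling.

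The genes most like each member in their pattern over the 20 calves are known by identifier alone. For CAPN1 the highest r was 0.96, with ENSBTAG00000015354 (8.98 scaled CPM on the High plane and 7.65 on the Moderate plane), and the lowest was -0.95, with ENSBTAG00000021554 (30.7 and 30.8). Without the 2 libraries that stood apart these were 0.93 and -0.91. For CAST the highest r was 0.82, with ENSBTAG00000032024 (30.0 and 30.2 scaled CPM), and the lowest was -0.84, with ENSBTAG00000019745 (7.96 and 9.92), and they were 0.63 and -0.67 without those libraries. The highest r of any gene with CAST in the 18 calves was 0.82 and the lowest -0.77, so other genes were then the most alike. None of these 4 genes was called between the feeding groups (limma adjusted p = 0.295 to 0.966).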

How the data were processed

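The deposited table gives a normalised signal per gene and calf, which the authors made by dividing read counts by the library total times a TMM factor and multiplying by 1000000; this was read from the values. In each column 100% of values were whole multiples of a single step, to within 0.01 of a read, so whole reads were recovered. Per the submitters' processing notes, the tools were STAR 2.6.1, edgeR 3.5 in R 3.4, cutadapt 2.6 and FastQC 0.11.8, and the build was ARS-UCD1.2; how reads were counted, with which annotation and strand setting, is not given in the sources used here. No per-sample column was left unused.

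CAPN1 and CAST were identified by the Ensembl identifiers given for them with the request. The RefSeq gene table used here (37063 rows, ARS-UCD2.0) matched 0 of the 27607 identifiers, so these 2 names could not be checked against it. Its entries with the symbols CAPN1 and CAST gave the transcript numbers and, by position, the overlapping genes. No other result rests on positions. Sequences, 52 further symbols in 6 lists (the calpain system, its substrates, other proteolysis, cell types) and gene lengths were not analysed here. The members, lists and tests were chosen with earlier results of these data known.

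Groups were compared on log2(scaled CPM + 1) in limma 3.58.1 under R 4.3.3, using its intensity trend and group as the sole term, two-sided, with Benjamini-Hochberg adjustment over the 12057 genes kept by edgeR's filterByExpr (4.0.16, minimum count 10); genes were called at an adjusted p below 0.05. It was tested on simulated data, in which 4.05% of calls were false. Genes were drawn independently there, without the variation that real libraries share, so this rate need not hold here. The edgeR quasi-likelihood test, DESeq2 1.42.0 and voom were run on the recovered reads. Ratios and correlations were tested by permutation (scipy 1.17.1, 100000 resamples, exact with 9 calves in a group), with adjustment over 13 tests; values with libraries left out carry unadjusted p-values. The genes named beside the members were those with the highest and the lowest r. Wilson intervals cover counting error only, because no molecular identifiers were used. Replicate numbers follow the order of the records and pair no calves.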

Additional observations from a re-analysis of the deposited data

Results flagged for a closer look

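The CAPN1 to CAST read ratio of 2.91 in High plane replicate 2 lay far from the other High plane calves, of which the next highest was 1.17. On the log2 scale the gap to that calf was 0.507 of the group's whole range, above the 95% critical value of 0.466 for 10 values. Its 95% Wilson interval, 2.62 to 3.24, covers counting error only. The CAPN1 and CAST levels of this calf, each the most extreme of its group, did not reach the critical value on their own. In all, 6 groups of 10 values were checked and 1 value was picked out, where chance picks out about 1 in 20 groups. The 6 groups were not independent, since the ratio was formed from CAPN1 and CAST reads of the same libraries. This library was also already known to stand apart, so the count is no test against chance.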

How the results depend on the processing

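No paired analysis was possible because the labels give no replicate numbers or pairing of calves. CAST was lower on the High plane and not called under all 32 alternatives (log2 fold change -0.31 to -0.15, limma, edgeR or DESeq2 adjusted p 0.252 to 0.620); its unadjusted p reached 0.0297 without High plane replicate 3. CAPN1 was not called under any of 32 (lowest adjusted p 0.455, with the top-20 share as a covariate), and its difference of -0.05 changed sign with edgeR (0.0020), DESeq2 (6.8e-04) and without Moderate plane replicate 8 (0.0046); leaving out 1 calf gave -0.16 to 0.0046 for CAPN1 and -0.31 to -0.15 for CAST. The log2 ratio difference of 0.19 became -0.11 as a difference of medians and spanned -0.012 (without High plane replicate 2) to 0.28 with 1 calf left out, with no p below 0.350. The r between CAPN1 and CAST became 0.040 without the 2 calves farthest out in CAPN1, 0.15 without the 2 libraries that stood apart, and spanned -0.46 to 0.039 with 1 calf left out, 0.039 being without High plane replicate 2. Genes called higher and lower, 138 and 120 with limma, numbered 292 and 291 with DESeq2, 358 and 267 with voom, 291 and 240 with the top-20 share as a covariate, 231 and 186 without the 2 libraries that stood apart (247 and 228 with edgeR), and 80 to 210 and 62 to 200 with 1 calf left out; with library totals alone they were 99 and 133, so that more were lower. The covariate and the last edgeR fit were chosen after seeing the data. The causes were not tested. At these read numbers the spread between the calves' libraries, not counting error, limits the comparison. Differences between calves and between library preparations cannot be told apart here.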

Other observations

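Which of the 2 genes varied more between calves depended on the scaling. In scaled CPM the CV over all 20 calves was 29.1% for CAPN1 and 22.4% for CAST. Per 1000000 total reads it was 17.9% for CAPN1 and 28.0% for CAST. Without the 2 libraries that stood apart the CVs were 21.7% and 18.8% in scaled CPM and 17.6% and 22.0% per 1000000 total reads, so the order changed with the scaling there too. Per 1000000 total reads CAPN1 averaged 74.4 ± 12.9 on the High plane and 80.3 ± 14.9 on the Moderate plane, and CAST 93.6 ± 30.8 and 111 ± 24.9 (SD, n = 10 each). On that scale the log2 fold changes were -0.11 ± 0.11 for CAPN1 and -0.29 ± 0.19 for CAST (SE; limma adjusted p = 0.762 and 0.528).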
